A study of Mus musculus with 48 samples.

Results

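Expanded node clones scarce in tumors were T cell clones that were large in a draining lymph node (dLN) while holding almost no reads in the tumors of the same mouse. A clone was a TCRβ chain defined by the nucleotides of its CDR3 together with its V and J segments, counted separately in CD4+ and CD8+ T cells. Members were selected on measured frequency in both organs. A member had a frequency of at least 0.03% of the reads of a dLN library and a mean frequency below 0.01% over the 4 tumor libraries of its mouse and subset, an undetected clone counting as 0. Clones at 0.01% or more in a dLN library of another mouse and the same subset were left out. This gave 1003 members among 412519 dLN clones, of which 938 were CD4+ and 65 were CD8+, and no sequence was a member in both subsets of a mouse. They were set against 1329 dLN clones of the same size that averaged 0.01% or more in the tumors, 1254 of them CD4+ and 75 CD8+, termed tumor-present clones below.

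The samples came from 4 female C57BL/6 mice, numbered 5 to 8 and labelled as 8 weeks of age, that carried Lewis lung carcinoma (LLC), a transplantable line of mouse lung carcinoma cells, under the skin on both sides of the back. No group was treated or left without a tumor, so every dLN drained a growing tumor at day 13. CD4+ and CD8+ T cells were sorted from each tumor, which was divided into 2 fragments, and CD44hi CD4+ and CD44hi CD8+ T cells from the left and right dLN, which gave 32 tumor and 16 dLN libraries. Only CD44hi cells were sorted from the dLNs, whereas the tumor sort had no CD44 gate, so the size of a clone in a dLN is its share of the CD44hi cells of that subset.

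T cells meet tumor antigen carried by dendritic cells in the dLN, divide there, acquire CD44, leave through the efferent lymph and reach the tumor by way of the blood. All descendants of a cell carry the same rearranged TCRβ chain, so the chain serves as a natural tag that can be followed between dLN and tumor. CD44hi cells of a lymph node also include memory cells and, in the CD4+ subset, regulatory and follicular helper T cells, and some of these cells respond to antigens unrelated to the tumor or stay in the node. The CDR3 is the loop built at the junction of the V, D and J segments, where bases are trimmed and added at random.

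The dLN libraries held 326582 to 1663878 reads and the tumor libraries 411355 to 4840722 reads. A frequency of 0.03% stood for 98.0 to 499.2 reads, and the product of this frequency and the number of sorted cells was 8.47 to 26.7 cells per dLN library. Reads carried no molecular identifiers, so the intervals given here, which are 95% Wilson intervals on these estimated cells, cover counting error only. The shallowest dLN library was the right CD4+ library of mouse 5, and its threshold stood for the fewest cells. In checks for carried-over reads and sequencing errors, no member lay 1 base from a clone with the same V and J in its library that was at least 10 times larger, none was more frequent in a library of the other subset of its mouse, and 1 CD8+ member was more frequent in a library of another mouse. The rule on other mice meant that no dLN library of the same subset could meet this last check. With any read, 59 CD4+ members (6.29%) and 11 CD8+ members (16.9%) were found in another mouse, against 6.22% and 25.3% of the tumor-present clones.

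The CDR3 sequences of the largest members are shown because they identify these clones. By the rule, these clones were large in a dLN and had a mean tumor frequency below the tumor threshold. They are the members with the highest dLN frequency of each mouse and subset, written 5′ to 3′ from the conserved cysteine codon, with capitals for the bases between the parts assigned to V and J.
CD4+ mouse 5, TRBV5 and TRBJ2-1: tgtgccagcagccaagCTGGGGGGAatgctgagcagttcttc
CD4+ mouse 6, TRBV13-3 and TRBJ2-4: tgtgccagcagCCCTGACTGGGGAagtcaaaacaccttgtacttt
CD4+ mouse 7, TRBV31 and TRBJ2-5: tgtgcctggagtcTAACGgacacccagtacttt
CD4+ mouse 8, TRBV12-2 and TRBJ2-4: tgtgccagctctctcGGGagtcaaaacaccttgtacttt
CD8+ mouse 5, TRBV12-2 and TRBJ1-1: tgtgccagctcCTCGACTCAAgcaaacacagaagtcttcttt
CD8+ mouse 6, TRBV17 and TRBJ2-7: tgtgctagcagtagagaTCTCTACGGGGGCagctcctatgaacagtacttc
CD8+ mouse 7, TRBV3 and TRBJ2-5: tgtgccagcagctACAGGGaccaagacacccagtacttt
CD8+ mouse 8, TRBV12-2 and TRBJ2-3: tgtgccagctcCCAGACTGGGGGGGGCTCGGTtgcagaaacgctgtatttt

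The largest member was the CD4+ TRBV5 clone of mouse 5, with 0.356% of the reads of the left dLN (interval 0.306% to 0.418%) and 0.119% of those of the right dLN (0.0862% to 0.168%). In the tumors of this mouse it was detected in 1 fragment per side, at 0.0129% of the reads of a left fragment and 0.00871% of those of a right fragment. It was also the CD4+ member with the highest value in its lower dLN, so it was large in both nodes. The largest CD4+ members of the other mice were more lopsided. The TRBV13-3 clone of mouse 6 had 0.134% in the left and 0.0411% in the right dLN, the TRBV31 clone of mouse 7 had 0.147% and 0.0165%, and the TRBV12-2 clone of mouse 8 had 0.133% and 0.00787%. Their mean tumor frequencies were 0.00417%, 0.00714% and 0.00750%. The TRBV12-2 clone of mouse 8, whose junction adds only GGG, was also found at 0.0104% in the CD8+ dLN libraries of its mouse.

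Among CD8+ T cells, the TRBV12-2 clone of mouse 5 had 0.183% of the left dLN reads (interval 0.154% to 0.218%) and 0.0148% of the right dLN reads (0.00788% to 0.0307%). Its tumor reads were on the left only, at 0.0195% and 0.0108% of the 2 fragments, and it was not detected in either right fragment. The TRBV17 clone of mouse 6 was the CD8+ member that was largest in both dLNs, with 0.153% and 0.115%, and it was found in every tumor fragment at 0.00187% to 0.00994%. The TRBV3 clone of mouse 7 had 0.0718% and 0.0142% in the dLNs and was found in a single tumor fragment at 0.000830%. The TRBV12-2 clone of mouse 8 had 0.123% and 0.0172% in the dLNs and averaged 0.00150% in the tumors. In all 8 of these mouse and subset pairs the higher value was in the left dLN.

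The frequencies that chose the members are a description and were not tested. The 938 CD4+ members had a median of 0.0398% in their higher dLN (range 0.03001% to 0.356%), against 0.0573% for the tumor-present clones (0.03001% to 1.31%). The 65 CD8+ members had a median of 0.0371% (0.0302% to 0.183%), against 0.0586% (0.0308% to 0.227%). Most members therefore lay just above the size threshold. In the tumors, the median member had 0.00178% of the CD4+ reads or 0.000360% of the CD8+ reads, whereas the median tumor-present clone had 0.0407% and 0.352%. The step across the tumor threshold was narrow in CD4+ T cells, from 0.00997% for the nearest member to 0.01001% for the nearest tumor-present clone, and in CD8+ T cells it ran from 0.00991% to 0.0116%. At the size threshold the lowest members had 0.03001% (CD4+) and 0.0302% (CD8+), and the nearest smaller clones had 0.02997% and 0.0297%. At the threshold for other mice, the members nearest to it had 0.00962% and 0.00583% in a dLN of another mouse, and the nearest clones left out had 0.0103% and 0.0106%.

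**Figure D1:**
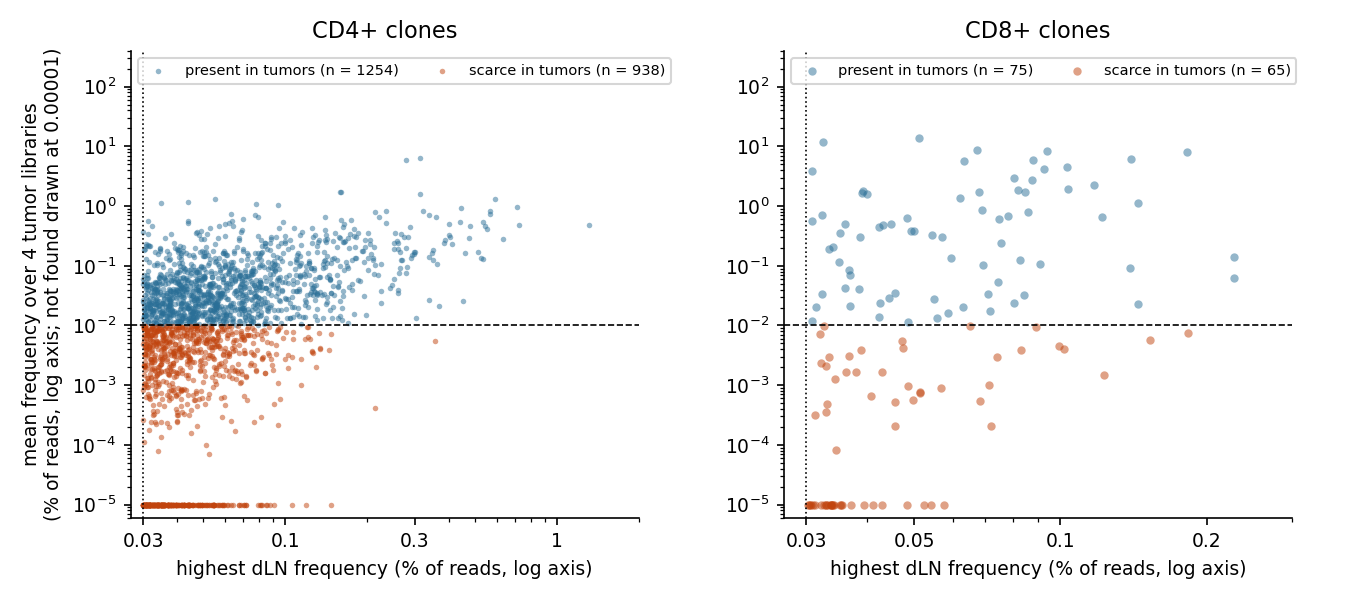
Each point is a dLN clone of at least 0.03% in a dLN library, with its highest dLN frequency on the x axis and its mean frequency over the 4 tumor libraries of its mouse on the y axis, both in percent of reads on log axes, for CD4+ (left) and CD8+ clones (right). The dashed line marks 0.01% in the tumors and the dotted line 0.03% in a dLN. Members lie below the dashed line, and the row at the bottom holds the 296 CD4+ and 28 CD8+ members that were not detected in any tumor library.

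In CD4+ T cells, mice 5, 6, 7 and 8 had 312, 183, 195 and 248 members, which were 48.1%, 37.9%, 37.5% and 45.8% of their dLN clones of the size. In CD8+ T cells they had 20, 21, 14 and 10 members, or 50.0%, 60.0%, 43.8% and 30.3%. The share was thus 42.3% ± 5.45 in CD4+ and 46.0% ± 12.4 in CD8+ T cells (SD, n = 4 mice). Mouse 5, with the shallowest CD4+ dLN library, had the most CD4+ members, and the part of depth in this was not tested. The filter on other mice removed 112 CD4+ clones, 39 of them otherwise members, and 58 CD8+ clones, 52 of them otherwise members. In CD8+ T cells 48 of the clones left out came from mouse 5 or 8 and reached 0.01% in a dLN of the other of these mice, and without the filter there were 117 CD8+ members.

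The share of members was highest among the smallest clones of the size. For CD4+ T cells it was 64.1% of the 746 clones at 0.03% to 0.04%, 43.2% of 699 at 0.04% to 0.06%, 29.4% of 442 at 0.06% to 0.1%, and 9.18% of 305 at 0.1% or more. The CD8+ shares in these classes were 64.3% of 56, 47.2% of 36, 24.2% of 33 and 26.7% of 15 clones. Large dLN clones that were scarce in tumors were thus few, with 28 CD4+ and 4 CD8+ members at 0.1% or more.

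Counting the members at 0.03% or more in a given library, the 8 CD4+ dLN libraries held 101 to 207 members (median 125.5), with 6.35% ± 1.67 of the reads (SD, range 4.24% to 9.39%). The lowest read share was in the right dLN of mouse 6 and the highest in the right dLN of mouse 5. Tumor-present clones took 20.4% ± 3.86 of the same reads. The 8 CD8+ dLN libraries held 2 to 14 members (median 9) with 0.432% ± 0.201 of the reads (range 0.122% to 0.702%), and tumor-present clones took 0.866% ± 0.398. Members held fewer reads than tumor-present clones in all 8 CD4+ libraries. CD8+ members held more reads than the tumor-present clones in the right dLN of mouse 5 (0.459% against 0.369%) and in the left dLN of mouse 6 (0.702% against 0.555%).

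**Figure D2:**
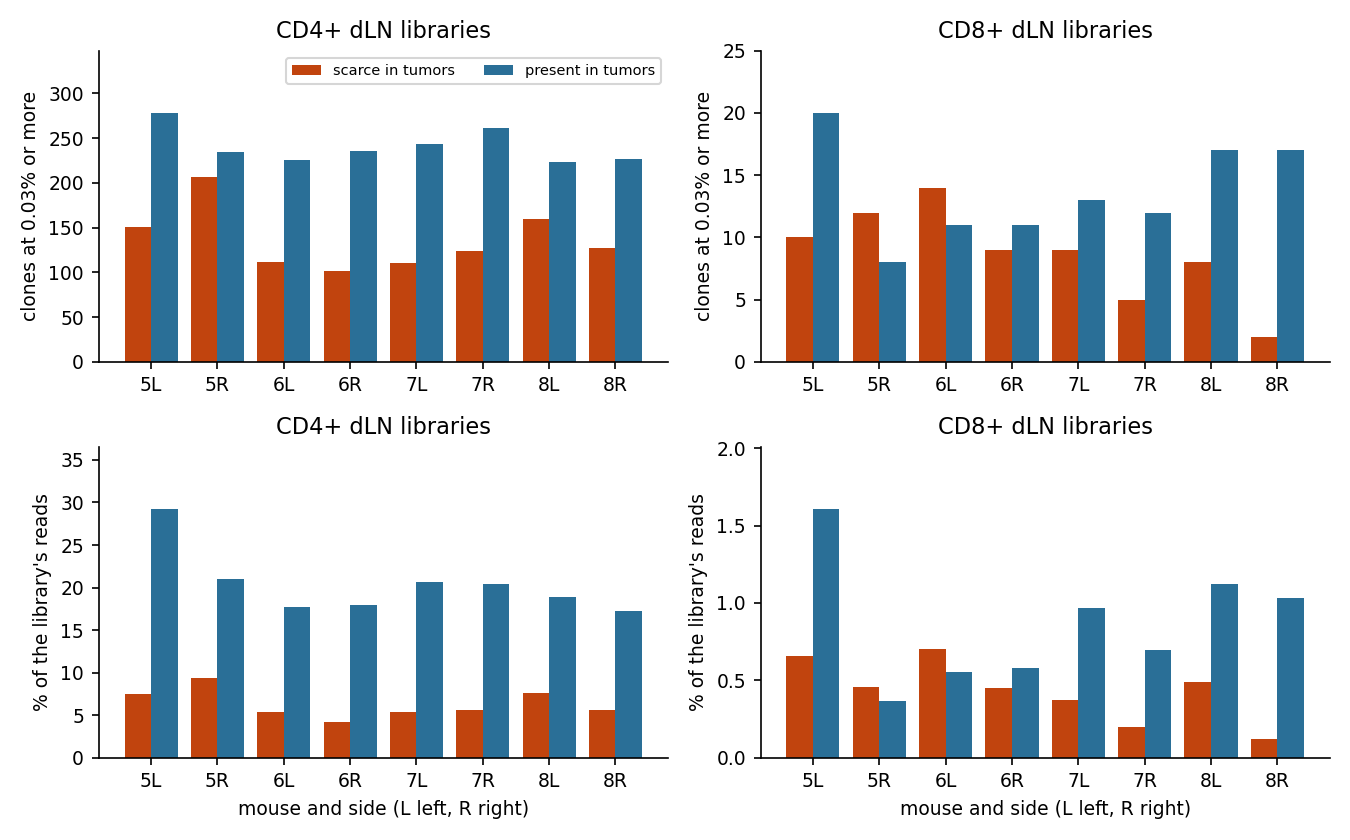
Bars give, for each of the 8 CD4+ (left) and 8 CD8+ dLN libraries (right), the number of clones at 0.03% or more (top) and their percent of the library's reads (bottom), for clones scarce in tumors and clones present in tumors. The x axis names the mouse and the side. CD4+ members hold 4.24% to 9.39% of the reads and CD8+ members 0.122% to 0.702%.

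Most members were rare in the tumors rather than missing from them. At least 1 tumor library of the mouse held 642 CD4+ members (68.4%) and 37 CD8+ members (56.9%), where 15.1% of all CD4+ and 7.64% of all CD8+ dLN clones were found in a tumor library. These shares were bounded by the rule and were not tested. By mouse, 51.9%, 73.2%, 84.6% and 73.0% of the CD4+ members of mice 5 to 8 and 60.0%, 52.4%, 64.3% and 50.0% of the CD8+ members were found there. The tumor reads of these mice were 3218841, 6519187, 11782162 and 8233453 (CD4+) and 6547074, 13244068, 12246512 and 12952991 (CD8+). The part of depth in the shares was not tested. All 4 tumor libraries held 122 CD4+ and 13 CD8+ members. The tumor threshold stood for 14.7 to 55.0 CD4+ cells and 37.5 to 98.0 CD8+ cells over the 4 libraries of a mouse. The dLN threshold stood for 8.47 to 17.0 CD4+ cells and 15.4 to 26.7 CD8+ cells in 1 library. These spans cover unlike numbers of libraries, so they do not rank the thresholds. As a product of frequency and sorted cells, 89 CD4+ members (9.49%) and 4 CD8+ members (6.15%) had more cells in the tumors than in the dLNs, against 86.0% and 100% of the tumor-present clones.

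**Figure D3:**
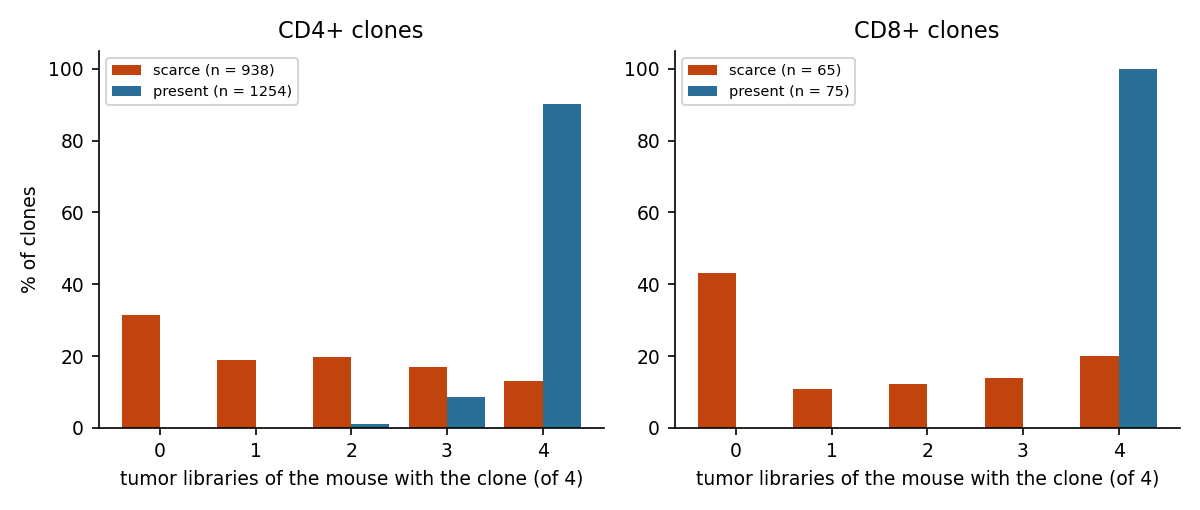
Bars give the percent of clones (y axis) that were found with any read in 0, 1, 2, 3 or 4 of the 4 tumor libraries of their mouse (x axis), for members and tumor-present clones of CD4+ (left) and CD8+ T cells (right). Members spread over all 5 classes, with 31.6% of CD4+ and 43.1% of CD8+ members in no tumor library, whereas 90.2% and 100% of the tumor-present clones were in all 4.

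For members that reached 0.03% in only 1 dLN, the tumor of the same side and the tumor of the opposite side could be compared, a comparison chosen after the values were seen. Among CD4+ members, the tumor of the same side held 35.3%, 58.2%, 72.4% and 58.9% of these members in mice 5 to 8, and the opposite tumor held 31.2%, 54.9%, 69.9% and 56.9%. The same-side value was the higher in each of the 4 mice. Their read share did not keep this order, with 0.483%, 0.480%, 0.452% and 0.623% on the same side and 0.5255%, 0.418%, 0.399% and 0.674% on the opposite side. CD8+ members of this kind were found on the same side in 44.4%, 42.1%, 50.0% and 40.0%, and on the opposite side in 38.9%, 42.1%, 57.1% and 50.0%, with no common order. Neither comparison was tested.

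In each mouse, a smaller share of the members than of the tumor-present clones was found in the dLN of the other side. Among CD4+ clones, 67.0%, 84.2%, 84.1% and 77.8% of the members of mice 5 to 8 were found with any read in the other dLN, against 95.2%, 98.3%, 98.8% and 98.3% of the tumor-present clones. The CD8+ values were 65.0%, 57.1%, 57.1% and 50.0% against 95.0%, 100%, 100% and 100%. The groups did not overlap in either subset. The background over all clones of the size was 88.7% in CD4+ and 80% in CD8+ T cells, and over dLN clones of any size it was 10.4% and 3.12%.

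The difference was -19.4 percentage points in CD4+ T cells (78.3% ± 8.09 against 97.7% ± 1.63, SD, n = 4 mice) and -41.4 points in CD8+ T cells (57.3% ± 6.13 against 98.8% ± 2.50), lower in 4 of 4 mice each. This difference is a description and not a test, since dLN frequency was part of the rule and a clone at 0.03% or more in both dLNs is found in the other by construction, which was the case for 16.4% of CD4+ members against 53.7% of tumor-present clones and for 6.15% against 45.3% in CD8+ T cells. The members were smaller than the tumor-present clones, and among clones below 0.06% the differences were -20.8 and -50.5 points. With a dLN threshold of 0.05% they were -10.8 points (CD4+) and -18.3 points (CD8+).

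The values were also taken, after the others were seen, over clones that reached 0.03% in 1 dLN only. Of these CD4+ clones, 61.3%, 81.0%, 80.1% and 73.7% of the members of mice 5 to 8 were found in the other dLN, against 90%, 96.4%, 97.3% and 96.3% of the tumor-present clones and 81.8% of both together. Of the CD8+ clones, 61.1%, 52.6%, 57.1% and 50.0% of the members were found there, against 91.7%, 100%, 100% and 100% of only 6 to 12 tumor-present clones per mouse, and 72.5% of both together. The groups again did not overlap, and the differences were -21.0 and -42.7 points, lower in 4 of 4 mice each. Every clone missing from the other dLN is of this kind, so these values rest on the same unfound clones, and they too are given with no test. Size within these clones was not matched between the classes.

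Within size classes the gap narrowed as clones grew. From the smallest to the largest class, 70.1%, 78.8%, 92.3% and 96.4% of the CD4+ members and 95.1%, 96.98%, 99.04% and 99.3% of the tumor-present clones were in the other dLN. For CD8+ members the values were 44.4%, 64.7%, 87.5% and 100%, against 95.0%, 100%, 100% and 100%, the last class holding 4 members. These values were not tested.

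**Figure D4:**
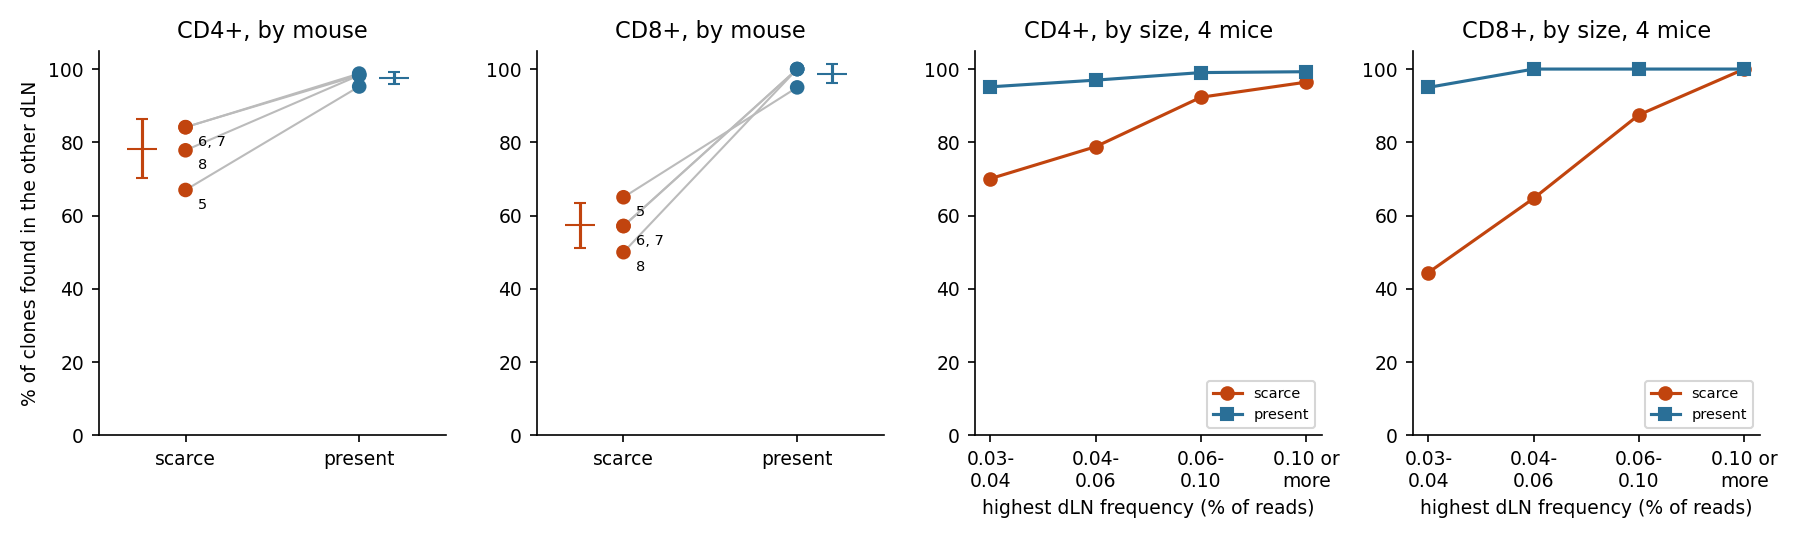
The percent of clones that were also found in the dLN of the other side (y axis) is plotted per mouse for members (scarce) and tumor-present clones (present), with mice numbered, grey lines joining the values of a mouse and bars for the mean and SD of 4 mice (the 2 panels on the left), and by the highest dLN frequency of the clone over the 4 mice together (the 2 panels on the right). Members run from 50.0% to 84.2% per mouse and tumor-present clones from 95.0% to 100%, and the curves approach each other as size increases.

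Members large in both nodes were a minority. Both dLNs held 154 CD4+ members (16.4%) and 4 CD8+ members (6.15%) at 0.03% or more, against 53.7% and 45.3% of the tumor-present clones. At the other end, 218 CD4+ and 27 CD8+ members were found in 1 dLN only, and 149 CD4+ and 23 CD8+ members were found in neither the other dLN nor a tumor library. Where a member was found in both dLNs, the higher side exceeded the lower by a median of 2.74 times in CD4+ and 8.68 times in CD8+ T cells, against 1.76 and 2.25 times for tumor-present clones. No test was made on these sizes, since dLN frequency was part of the rule.

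Mean CDR3 length overlapped between the classes. By mouse, CD4+ members averaged 13.76, 14.03, 13.76 and 13.75 residues in mice 5 to 8 and tumor-present clones 13.86, 13.86, 13.80 and 13.71, and CD8+ members averaged 14, 14.14, 13.64 and 13.2 against 13.45, 13.71, 13.22 and 14.09. The difference was 0.0205 residues in CD4+ T cells (p = 0.857) and 0.128 in CD8+ T cells (p = 0.686; two-sided exact permutation tests over the 70 splits of the 8 values, 0.984 and 0.980 after Benjamini-Hochberg adjustment over the 10 tests of 5 clone features in 2 subsets), within the spread between mice. The smallest p of this test is 0.0286. The lengths of members ran from 8 to 20 residues in CD4+ and from 9 to 17 in CD8+ T cells, with 14 as the median and the most common length of each.

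Junctional bases overlapped in number as well. Bases assigned to no V, D or J segment numbered 3.28 ± 0.156 in CD4+ members and 3.39 ± 0.178 in tumor-present clones (p = 0.343), and 3.37 ± 0.893 against 3.26 ± 0.408 in CD8+ T cells (p = 0.886, exact permutation tests, n = 4 mice; 0.686 and 0.984 adjusted). With every base between V and J counted instead, D bases included and chosen after the values were seen, the CD8+ members of mice 5 to 8 averaged 10.45, 9.38, 9.71 and 9.60 bases and the tumor-present clones 8.95, 8.36, 7.22 and 10.17, which overlapped, a difference of 1.11 bases (exact permutation p = 0.171, n = 4 mice, 0.429 adjusted). No untemplated base was found in 104 CD4+ members (11.1%) and 7 CD8+ members (10.8%), against 9.73% and 13.3% of the tumor-present clones.

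Convergence, the presence of another nucleotide sequence for the same V, J and CDR3 amino acid sequence, was first counted within the mouse, over all its libraries of the subset. For CD4+ clones it was 14.4%, 23.0%, 16.4% and 19.4% of the members of mice 5 to 8 and 22.0%, 25.3%, 24.9% and 26.6% of the tumor-present clones, against 21.7% of all clones of the size, a difference of -6.44 points (exact p = 0.0571, 0.286 adjusted). For CD8+ clones it was 15.0%, 19.0%, 21.4% and 20.0% against 20.0%, 35.7%, 38.9% and 30.4%, with 25% over all clones of the size, a difference of -12.4 points (exact p = 0.0857, 0.286 adjusted). The members were lower in all 4 mice of each subset, but the groups overlapped and no adjusted value passed 0.05. The libraries counted included those of the tumors, whose frequencies defined the classes. In CD8+ T cells the median tumor frequency was 0.352% for tumor-present clones and 0.000360% for members. The part of tumor frequency in this count was not tested.

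Convergence with the dLNs of other mice was 22.8% ± 1.90 for CD4+ members and 24.6% ± 2.22 for tumor-present clones (background 24%; exact p = 0.257, n = 4 mice, 0.643 adjusted). For CD8+ clones it was 10.0%, 9.52%, 21.4% and 0% of the members of mice 5 to 8 against 20.0%, 50.0%, 33.3% and 30.4%, with a background of 22.1% (exact p = 0.0571, 0.286 adjusted). The values of CD8+ members and tumor-present clones overlapped only between mouse 7 and mouse 5. The CD4+ and CD8+ differences, -1.85 and -23.2 points, differed by -21.3 points (exact permutation p = 0.0286, n = 4 mice per subset, 0.143 adjusted over 5 features). Both subsets came from the same mice, and sign changes within mice gave an exact permutation p of 0.125, below which 4 mice cannot go. The filter on other mice had itself acted on sharing with their dLNs. It left out 52 CD8+ clones that were otherwise members and 6 tumor-present ones, and 39 and 73 in CD4+ T cells. The differences in convergence with other mice, and their p-values, therefore hold for the filtered clones only. The dLN libraries of the other subset held 5.73% ± 3.71 of the CD4+ members and 7.15% ± 3.50 of the tumor-present clones (background 6.25%; exact p = 0.571, n = 4 mice, 0.952 adjusted). They held 0 of the 65 CD8+ members, which allows a share of up to 4.62%, and 2 of the 75 tumor-present clones (background 1.43%; exact p = 1 before and after adjustment, n = 4 mice).

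Some CD4+ members of different mice encoded the same chain. There were 18 sets of CD4+ members, 39 members in all (4.16%), with the same V, J and CDR3 amino acid sequence. Tumor-present clones formed 45 sets with 7.89% of these clones, and both classes together formed 80 sets with 8.62%. These shares grow with the number of clones compared and were not tested. Of the 18 sets of members, 14 spanned more than 1 mouse, and in none did the nucleotide sequences match, since clones identical at the nucleotide level and at 0.01% in another dLN had been left out. No such set was found among the 65 CD8+ members, and 4 sets with 9 clones were found among the 75 tumor-present clones (6.43% of both classes together). The largest set used TRBV13-3 and TRBJ2-5 and had 4 members in 3 mice, shown here because different junctional bases gave the same residues, at 0.0377% and 0.0524% (mouse 5), 0.0319% (mouse 7) and 0.0307% (mouse 8) in their higher dLN.
Mouse 5, first sequence: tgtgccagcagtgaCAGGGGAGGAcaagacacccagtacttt
Mouse 5, second sequence: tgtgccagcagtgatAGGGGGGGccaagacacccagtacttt
Mouse 7: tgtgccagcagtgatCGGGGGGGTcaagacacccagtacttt
Mouse 8: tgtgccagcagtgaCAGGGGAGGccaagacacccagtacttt

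Segment use of the members was compared by clones, not reads, with edgeR's quasi-likelihood test on the number of clones per segment, mouse and class. No segment passed an adjusted p of 0.05, among 20 V and 12 J segments tested in CD4+ (0% called for each) and 5 V and 6 J segments in CD8+ T cells (0% called for each). Before adjustment, 1 CD4+ V segment (5%), 2 CD4+ J segments (16.7%), 2 CD8+ V segments (40%) and 2 CD8+ J segments (33.3%) were below 0.05. DESeq2 called 1 segment, TRBV4 in CD8+ T cells.

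CD4+ members used TRBV1 most, in 166 clones, followed by TRBV13-2 in 122 and TRBV5 in 100. TRBV1 is the first V segment of the locus in the GRCm38 annotation (chromosome 6, 40891229 to 40891885). It made up 18.6%, 14.2%, 16.9% and 19.8% of the members in mice 5 to 8 and 17.9%, 26.0%, 19.4% and 16.04% of the tumor-present clones, which overlapped, so that TRBV1 stood at 17.4% and 19.8% in clones of this size and at 7.50% in all dLN clones. Its log2 fold change, members over tumor-present clones, was -0.17 (SE 0.185, adjusted p = 0.622 by edgeR), the largest difference downwards in percentage points. It turned on mouse 6, without which the log2 fold change was 0.057. TRBV5 had the largest difference upwards, 11.3% ± 5.16 against 8.75% ± 1.75 (log2 fold change 0.29, SE 0.253, adjusted p = 0.511 by edgeR), and mouse 6 had 18.6% against 6.33%. Without mouse 6 the log2 fold change was -0.13, so this direction too turned on 1 mouse. TRBV13-2 was at 12.9% and 12.4% (adjusted p = 0.889 by edgeR).

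The lowest p among CD4+ V segments was that of TRBV14 (chromosome 6, 41135145 to 41135616 in GRCm38), which was picked out after its values were seen. It made up 5.13%, 4.92%, 3.59% and 3.23% of the members and 2.38%, 2%, 2.15% and 1.02% of the tumor-present clones of mice 5 to 8, without overlap, against 1.84% of all dLN clones. Its log2 fold change was 1.14 (SE 0.352, adjusted p = 0.0622 by edgeR, 0.0144 to 0.825 over the alternatives). Among J segments, CD4+ members used TRBJ2-7 in 165 and TRBJ2-4 in 123 clones, at 17.6% and 12.5% of members and 17.8% and 11.7% of tumor-present clones. The largest differences were those of TRBJ2-1 upwards, 11.4% ± 0.257 against 8.98% ± 1.45 (log2 fold change 0.35, adjusted p = 0.284 by edgeR), and TRBJ1-1 downwards, 6.94% ± 2.14 against 9.81% ± 1.41 (log2 fold change -0.54, adjusted p = 0.116 by edgeR). TRBJ1-6 had the lowest p of these, with 2.43% ± 0.562 against 4.59% ± 0.948 (log2 fold change -0.94, adjusted p = 0.0718 by edgeR), and was picked out after its values were seen.

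**Figure D5:**
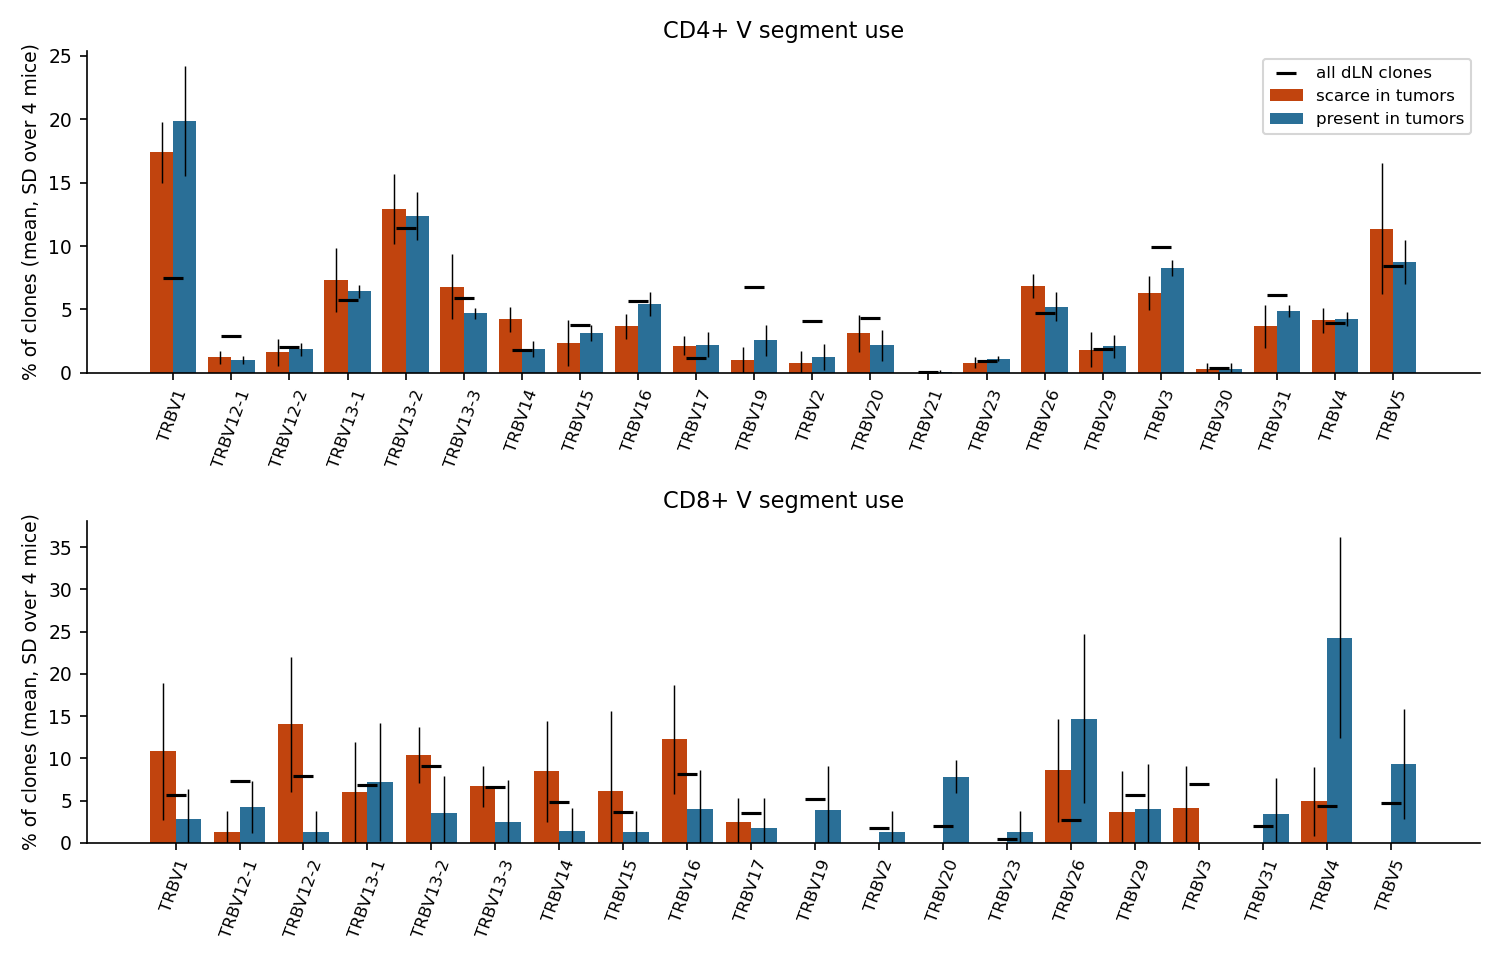
Bars give the percent of clones using each V segment (mean and SD over 4 mice) among members and tumor-present clones of CD4+ (top) and CD8+ T cells (bottom), and black dashes give the mean over all dLN clones. In CD4+ T cells TRBV1 stands at 17.4% and 19.8% against 7.50% of all dLN clones, and in CD8+ T cells TRBV4 stands at 4.94% of members and 24.3% of tumor-present clones.

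In CD8+ T cells, V use of members and tumor-present clones differed most at TRBV4 (chromosome 6, 41059394 to 41059886 in GRCm38). It was used by 3 of the 65 members and 17 of the 75 tumor-present clones. By mouse it made up 5.00%, 4.76%, 0% and 10.0% of the members of mice 5 to 8 and 15.0%, 35.7%, 33.3% and 13.0% of the tumor-present clones, without overlap, while all CD8+ dLN clones stood at 4.42%. The members were thus near the level of the whole node, and the tumor-present clones were above it. The log2 fold change was -2.14 (SE 0.780, adjusted p = 0.0511 by edgeR). It passed 0.05 with DESeq2 (log2 fold change -2.56, adjusted p = 0.0195), and the adjusted p ran from 0.000185 to 0.189 over the alternatives, so the call turned on the setting.

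The V segments used by most CD8+ members were TRBV1, TRBV12-2 and TRBV16, with 8 clones each. TRBV12-2, a segment of the Vβ5 group, had the largest difference upwards, with 10.0%, 4.76%, 21.4% and 20.0% of the members of mice 5 to 8 against 5.00%, 0%, 0% and 0% of the tumor-present clones, the latter from a single clone, with 7.90% of all CD8+ dLN clones in between on average. With 9 clones in all it was below the minimum of 10 clones for the test. TRBV1 was at 10.8% ± 8.11 against 2.87% ± 3.51 (adjusted p = 0.117 by edgeR) and TRBV16 at 12.3% ± 6.46 against 3.96% ± 4.62 (adjusted p = 0.173 by edgeR), where all CD8+ dLN clones stood at 5.66% and 8.16%. No CD8+ member used TRBV5 or TRBV20, where 0 of 65 allows a share of up to 4.62% by counting error alone, while 7 and 6 tumor-present clones did and all CD8+ dLN clones stood at 4.68% and 1.99%. These were also too few for the test and were named after their values were seen.

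TRBJ2-7 (chromosome 6, 41543810 to 41543856 in GRCm38), the last functional J segment of the second cluster, was used by 21 CD8+ members. It made up 25%, 23.8%, 35.7% and 60.0% of the members of mice 5 to 8 and 20.0%, 7.14%, 5.56% and 13.0% of the tumor-present clones, without overlap, with 21.4% of all CD8+ dLN clones in between. The log2 fold change was 1.38 (SE 0.53, adjusted p = 0.0774 by edgeR). TRBJ2-3 was used by 12 members, at 18.3% ± 4.48 against 8.41% ± 7.42 (log2 fold change 1.14, adjusted p = 0.232 by edgeR), and at 8.61% of all CD8+ dLN clones. TRBJ1-2 had the largest difference downwards, with 4 members against 15 clones, and all 4 came from mouse 6, where they were 19.0% of the members. Tumor-present clones had 15.0%, 21.4%, 27.8% and 17.4%. On average the members were at 4.76%, near the 5.68% of all CD8+ dLN clones, and the tumor-present clones were above it at 20.4%. The log2 fold change was -1.59 (SE 0.744, adjusted p = 0.117 by edgeR). Without mouse 6 no member used it, so no fold change is given, and the call that edgeR then made (adjusted p = 0.00700) sets the tumor-present clones against a count of 0. With trimmed-mean scaling in place of clone numbers, the median log2 fold change moved by -0.76 for the CD8+ J segments and by -0.21 for the CD8+ V segments.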

How the data were processed

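TCRβ libraries of 4 mice were analysed from the deposited tables, which give per clone a read count and its fraction of the library, with V, D and J calls and their positions in the CDR3. The authors trimmed reads with Cutadapt 3.2, filtered them with PRINSEQ, assembled productive clones with MiXCR on IMGT segments and exported them with VDJtools. The deposited counts precede their down-sampling, and the genome build is not given in the sources used here. Segment positions came from the GRCm38 annotation by symbol.

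Clones were joined by V, J and CDR3 nucleotides within mouse and subset. The mouse was the unit of every test. Clone features were compared by exact permutation over 70 splits with Benjamini-Hochberg adjustment over 10 tests, or 5 for differences between subsets (presence in the other dLN was planned as a test and, after the data were seen, kept as a description and taken out of both families), and numbers of clones per segment (at least 10 over the 8 tallies) with edgeR 4.0.16 in R 4.3.3, library size being the number of clones, with default trended dispersion, and DESeq2 1.42.0 as an alternative. The exact permutation and edgeR tests, but not DESeq2, were also run on simulated data, whose outcome is not given here. Estimated cells are the frequency times the sorted cells. Deviations of both classes from their means correlated within mice 5 to 8 at 0.307, 0.165, 0.612 and -0.302 over 11 values. The classes come from the same animals, so the mouse block was a listed alternative. Named clones were the largest per mouse and subset, the highest in both dLNs and those nearest a threshold; named segments were the most used (3 V, 2 J) and the most different. Members and lists were chosen with earlier results of these data known.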

Additional observations from a re-analysis of the deposited data

Results flagged for a closer look

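Of 50 groups of 4 or 8 values checked for a value far from the others by Dixon's criterion, 5 held one. For normally distributed values, chance alone flags about 1 in 20 groups. This rate does not hold for shares that tie at 0% or 100% in the other mice, as in the CD8+ groups below, where any differing value is flagged. The mean CDR3 length of the CD4+ members of mouse 6 was 14.03 residues, against 13.75 to 13.76 in the other mice. Of the tumor-present clones of mouse 5, 95.2% (CD4+) and 95.0% (CD8+) were found in the other dLN, below 98.3% to 98.8% and 100% in the other mice. Of the CD8+ tumor-present clones of mouse 8, 8.70% were found in the CD4+ dLN libraries, against 0% elsewhere. TRBJ1-2 was used by 19.0% of the CD8+ members of mouse 6 and by 0% in the other mice.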

How the results depend on the processing

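The numbers of members followed the thresholds. A dLN threshold of 0.05% left 268 CD4+ and 18 CD8+ members, which were 26.1% and 29.2% of the clones of that size and held 2.67% and 0.210% of the dLN reads. Requiring less than 0.01% in the highest tumor library left 615 CD4+ members (27.6% of clones, 3.81% of reads), and a tumor threshold of 0.003% left 556 (30.0%, 3.34%). Without the filter on other mice there were 117 CD8+ members with 1.58% of the reads.

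The tests of clone features say little about stability, since at least 6 of the 10 would have to reach the smallest p of 0.0286 for any to pass 0.05 after adjustment, and with a mouse left out or as a block none could. With presence in the other dLN kept in the families as planned, the lowest adjusted p of the other features was 0.171 and that of a difference between subsets 0.0857. Small differences changed sign. CD8+ CDR3 length differed by -0.00417 residues among clones below 0.06%, non-templated bases by 0.117 in CD4+ T cells when every base between V and J was counted (1.11 in CD8+ T cells, against 0.115) and by -0.0982 in CD8+ T cells for clones defined by amino acids, and presence of CD4+ clones in the other subset by 0.295 points for clones defined by amino acids. With a mouse left out, CDR3 length differed by -0.0314 to 0.0609 residues in CD4+ T cells (below 0 without mouse 6) and by -0.0126 to 0.4664 in CD8+ T cells (below 0 without mouse 5), and CD8+ non-templated bases by -0.0606 to 0.426 (below 0 without mouse 8). The mouse block leaves differences as they are by construction (-6.44 and -12.4 points for convergence within the mouse) and changes only the p of the exact test, which 16 sign changes cannot take below 0.125. The block called 0 V and 0 J segments in either subset. Over all clones of the size, leaving out a mouse gave differences in the other dLN of -21.1 to -16.4 points (CD4+) and -45.2 to -38.6 points (CD8+).

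Segment calls depended on the setting. CD8+ V segments called numbered 1 with DESeq2, with a common dispersion (added after the data were seen), below 0.06% and without the filter on other mice (TRBV4 each), 2 with reads drawn to 6 per sorted cell (TRBV4 and TRBV12-2) and 4 without the filter on rare segments (also TRBV5 and TRBV20), and 0 to 1 with a mouse left out (TRBV4 without mouse 8, adjusted p = 0.0217 by edgeR). At a dLN threshold of 0.05% the CD8+ V segments could not be fitted, having fewer than 2 segments with 10 clones. TRBV14 was the 1 CD4+ V segment called after drawing. Without the filter on other mice 2 CD4+ J segments (TRBJ1-1 and TRBJ1-6) and 1 CD8+ J segment (TRBJ1-2) were called, and CD8+ J calls ran from 0 to 1 with a mouse left out (TRBJ1-2 without mouse 6). The causes were not tested.

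Named CD4+ segments near 0 changed sign. The log2 fold change of TRBJ2-7 was 0.10 with DESeq2, 0.052 with trimmed-mean scaling, 0.053 below 0.06%, 0.044 without the filter on other mice, and -0.089 to 0.063 with a mouse left out (above 0 without mouse 7). That of TRBV13-2 was -0.047 at a dLN threshold of 0.05% and -0.043 after drawing. With a mouse left out TRBV1 ran from -0.31 to 0.057 and TRBV5 from -0.13 to 0.53, both turned by mouse 6.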
